A study of Mus musculus with 6 samples.

Results

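The Janus kinase family comprises 4 of the 21757 protein-coding genes of the mouse annotation used here (GENCODE M39, genome build GRCm39), namely Jak1, Jak2, Jak3 and Tyk2. For each gene, every distinct accessible interval that overlapped the sequence from 3 kb upstream of the gene to its end was taken, which gave 89 of the 279569 intervals of the series: 56 at Jak1, 8 at Jak2, 5 at Jak3 and 20 at Tyk2. The rule names the genes as a family and uses no measured value, although earlier results of these data were known when it was chosen.

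The study profiled chromatin accessibility by ATAC-seq, in which a transposase cuts open chromatin and tags it for sequencing, in kidneys of wild-type mice and of mice lacking ACLY in kidney tubule cells. The 3 WT libraries carry the batch labels 1, 1 and 2, and the 3 Acly cKO libraries the batch labels 4, 4 and 5. By the methods of the study, Acly cKO mice were Acly fl/fl mice with Ksp-Cre, a transgene driven by Cdh16 that recombines in proximal and distal tubules and collecting ducts but leaves the other kidney cells their Acly, and the WT mice were Acly fl/fl littermates without Cre. All libraries are labelled as control treatment, with no age given.

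The deposited accessibility data are a single peak call of all libraries pooled, with 0 columns for single libraries. The values below therefore have no replicate error and no comparison of WT with Acly cKO could be made, and the genotypes lie in different batches, so that genotype and batch cannot be told apart. Deletion of Acly could not be checked in the pool for the same reason. The libraries in the pool are not named in the sources used here. The methods of the study count further WT libraries deposited earlier, so the share of each genotype in the pool is unknown. Each interval was described by its summit with the lowest q value, using the fold enrichment there. Fold enrichment is the number of read ends stacked at the summit (pileup) over that of the background, with 1 added to both. By the methods of the study, the caller extended read ends to a set length, so a pileup is given here as a count of read ends. The background pileup was 14.27 at every position, so that a fold enrichment of 1.70, the lowest listed, stood for 25 read ends. Brackets give exact Poisson intervals at a confidence of 95%, which cover counting error in the pool only. The sign of the shift that the caller applied to read ends is not clear from the sources used here, so the distances of summits from starts, and the windows centred on summits, carry an uncertainty that was not measured. Fold enrichment is a height at 1 position, the highest summit of an interval that may be wide. For an interval at a gene start, that summit may lie more than 1 kb from the start. Heights were compared between genes without a correction for the length of gene or interval. Taking only summits within 1 kb of the start left the values of all members unchanged, and other genes were not checked.

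Janus kinases are tyrosine kinases bound to the inner part of cytokine receptors that lack a kinase of their own. When a cytokine joins the receptor chains, the kinases activate each other and phosphorylate STAT proteins, which dimerise and enter the nucleus, and SOCS proteins and phosphatases shut the signal off. JAK1, JAK2 and TYK2 are made in most cell types and serve interferon, IL-6 family, hormone and growth factor receptors, whereas JAK3 is made mainly in blood cells and pairs with the common gamma chain of the receptors for IL-2, IL-4, IL-7, IL-9, IL-15 and IL-21.

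The 250 bases before the canonical start of each gene are shown first because the start of each gene lay in the interval named below as its promoter. They are written 5′ to 3′ on the strand of the gene, from GRCm39, at chr4:101122488-101122737 (minus strand) for Jak1, chr19:29228427-29228676 (plus strand) for Jak2, chr8:72128442-72128691 (plus strand) for Jak3 and chr9:21042690-21042939 (minus strand) for Tyk2. Capitals mark matches to the 8 motifs described further down.
Jak1 promoter: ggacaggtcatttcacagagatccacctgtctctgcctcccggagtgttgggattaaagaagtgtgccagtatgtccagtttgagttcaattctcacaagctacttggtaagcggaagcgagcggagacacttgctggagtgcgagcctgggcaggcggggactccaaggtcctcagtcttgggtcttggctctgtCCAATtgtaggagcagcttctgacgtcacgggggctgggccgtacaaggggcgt
Jak2 promoter: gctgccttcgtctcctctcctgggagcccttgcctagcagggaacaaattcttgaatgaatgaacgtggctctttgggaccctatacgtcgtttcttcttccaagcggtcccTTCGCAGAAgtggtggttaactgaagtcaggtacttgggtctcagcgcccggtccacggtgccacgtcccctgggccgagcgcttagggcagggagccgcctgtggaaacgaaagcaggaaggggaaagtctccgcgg
Jak3 promoter: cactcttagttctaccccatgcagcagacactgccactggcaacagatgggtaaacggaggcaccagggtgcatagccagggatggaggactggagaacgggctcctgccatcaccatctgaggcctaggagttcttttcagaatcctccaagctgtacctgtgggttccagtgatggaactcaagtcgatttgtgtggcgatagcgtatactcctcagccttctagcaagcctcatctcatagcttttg
Tyk2 promoter: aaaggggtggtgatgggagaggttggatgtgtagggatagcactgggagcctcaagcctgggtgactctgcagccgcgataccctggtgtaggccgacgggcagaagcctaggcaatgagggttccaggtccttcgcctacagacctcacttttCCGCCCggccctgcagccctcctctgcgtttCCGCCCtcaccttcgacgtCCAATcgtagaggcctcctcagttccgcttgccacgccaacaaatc

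All 4 genes had an accessible interval within 1 kb of the canonical start, as did 75.8% of all protein-coding genes, and in all 4 its fold enrichment was at least 5, as in 66.2% of all protein-coding genes. The heights separated the 3 broadly expressed members from Jak3. Tyk2, the kinase of interferon, IL-12 and IL-23 receptors, had the highest promoter at 64.6 [60.6 to 68.7], from a pileup of 985 read ends. Jak1, which serves interferon, IL-6 family and gamma chain receptors, reached 57.6 [53.9 to 61.5] from 879 read ends. Jak2, the kinase of growth hormone and erythropoietin receptors, reached 49.5 [46.0 to 53.2] from 755 read ends. Jak3 stood at 23.8 [21.4 to 26.4] from 363 read ends.

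The intervals of Tyk2 and Jak1 overlapped, those of Jak1 and Jak2 came close without overlapping, and that of Jak3 lay below the other 3. Jak2 was 2.08 times, Jak1 2.42 times and Tyk2 2.71 times as high as Jak3. These are differences between positions in 1 pool and carry no test. Among all protein-coding genes, with those lacking a promoter interval counted as 0, 91.9% had a lower promoter than Tyk2, 87.9% a lower one than Jak1, 82.0% a lower one than Jak2 and 54.9% a lower one than Jak3. The median over the 16499 genes with a promoter interval was 30.1, so that Jak3 lay under this median and the other members above it.

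**Figure D1:**
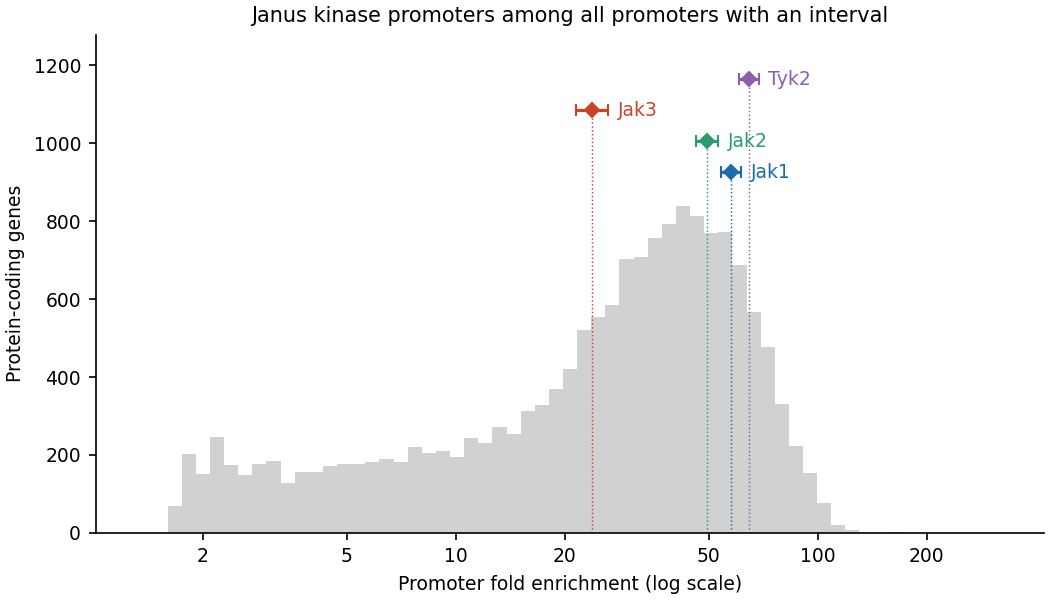
Promoter fold enrichment (x axis, log scale) of protein-coding genes with an interval within 1 kb of the start; bars count genes, and the coloured diamonds with whiskers show the 4 Janus kinase genes with 95% Poisson intervals, at heights chosen for legibility. Jak3 at 23.8 lies left of the peak of the distribution, and Jak2, Jak1 and Tyk2 lie right of it, between 49.5 and 64.6.

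Jak1 (ENSMUSG00000028530.16, chr4:101008838-101122487, minus strand) is the longest member, with 113650 bp and 25 exons in its canonical transcript. Its promoter interval, chr4:101120482-101123650, was 3169 bp wide with 5 summits, and the highest lay at −17 bp from the canonical start, inside the promoter sequence printed above. Of the 16 annotated transcript starts of the gene, 15 lay inside an interval. The 1 RefSeq promoter sequence of Jak1, placed in GRCm39 by its letters, put the RefSeq start 67 bp further into the gene.

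Of the 56 intervals at Jak1, 51 had their highest summit in an intron, 3 in coding parts of exons 3, 10 and 18, and 2 upstream. Of these, 11 had a fold enrichment of at least 5, the promoter and 10 in introns. The highest intronic interval reached 19.2 in intron 1, 62428 bp from the start, followed by 14.6 at 30750 bp and 13.9 at 48795 bp in the same intron. Intron 1 held 34 intervals, 5 of them with at least 5. The other strong ones in intron 1 reached 9.43 at 66721 bp and 5.56 at 25808 bp.

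Further into the gene, intron 2 held an interval of 9.36 at 72862 bp, intron 10 one of 5.63 at 92372 bp, intron 11 one of 8.64 at 96937 bp, intron 16 one of 5.89 at 104267 bp and intron 20 one of 6.48 at 107600 bp. Strong intervals were thus spread over the length of Jak1 and not gathered near its start. The exon intervals were low, between 1.96 and 2.16, and the median over the 55 intervals other than the promoter was 2.36. Of the 56 intervals, 28 had a −log10 q under 5, which are the least certain of the list.

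The strongest intronic windows of Jak1 are printed because they carry its highest signal away from the promoter. Each is 101 bases centred on the summit, on the minus strand, at chr4:101060009-101060109 (19.2) and chr4:101091687-101091787 (14.6), both in intron 1, with a RUNX match of the window at 30750 bp in capitals.
Jak1 62428 bp: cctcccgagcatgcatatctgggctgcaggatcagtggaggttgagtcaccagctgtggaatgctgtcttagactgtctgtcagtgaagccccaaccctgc
Jak1 30750 bp: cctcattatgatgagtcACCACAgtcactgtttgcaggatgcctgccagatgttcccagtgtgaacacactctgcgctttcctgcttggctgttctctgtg

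Jak2 (ENSMUSG00000024789.15, chr19:29228677-29290505, plus strand, 61829 bp, 24 exons) combined a high promoter with 1.23 intervals per 10 kb, below the median of 1.86 over all protein-coding genes. A lower density was found in 37.9% of these genes. Its promoter interval, chr19:29227269-29231970, spanned 4702 bp with 11 summits, and all 15 annotated transcript starts of the gene lay inside an interval. The highest summit lay 402 bp past the canonical start, in the untranslated part of exon 1, and at −124 bp from the RefSeq start, which lies 526 bp past the canonical one. The start of Gm59364, a long noncoding RNA on the opposite strand, lay in the same interval, 224 bp past the start of Jak2, so that the height cannot be assigned to either start.

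The other 7 intervals of Jak2 were all intronic, and 2 of them, both in intron 2, had a fold enrichment of at least 5. They reached 8.31 at 19965 bp and 7.14 at 14402 bp, and the next were 4.78 at 41413 bp in intron 12 and 3.14 at 33765 bp in intron 8. The remaining 3, between 2.29 and 2.75, lay in introns 1 and 2. The part of the gene past intron 12 held no interval. The highest intronic summit of Jak2, 14.1 at 2664 bp in intron 1, belonged to the promoter interval. The strongest window outside that interval, in intron 2 at chr19:29248592-29248692 on the plus strand, is shown, and holds none of the motifs searched.
Jak2 19965 bp: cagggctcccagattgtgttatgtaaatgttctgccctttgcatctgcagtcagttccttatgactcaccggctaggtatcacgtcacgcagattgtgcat

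Tyk2 (ENSMUSG00000032175.13, chr9:21015363-21042689, minus strand, 27327 bp, 25 exons) had the highest promoter of the family and only low intervals in its body. The promoter interval, chr9:21040871-21043998, was 3128 bp wide with 8 summits, of which only the highest, 37 bp past the canonical start in exon 1 and at −81 bp from the RefSeq start, had at least 5. The long noncoding RNA Gm69642 starts on the opposite strand 47 bp past the start of Tyk2, 10 bp from that summit, and its signal cannot be told apart from that of Tyk2. Of the 21 annotated transcript starts, 20 lay inside an interval.

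Past the promoter, the body of Tyk2 held 12 intervals in introns and 5 in coding exons, and all of them lay between 1.70 and 2.75. The highest of these, in intron 3 at 4983 bp, was 2.75. Upstream, an interval at −1731 bp reached 3.54, and one of 4631 bp with 15 summits reached 13.4 at −4709 bp. That summit lay beyond the 3 kb region that the edge of its interval entered, in the neighbouring gene Cdc37. Of the 20 intervals, 14 had a −log10 q under 5. Tyk2 thus had the highest density of the family, 6.59 intervals per 10 kb against a median of 1.86 over all protein-coding genes, made up mostly of intervals near the limit of detection.

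**Figure D2:**
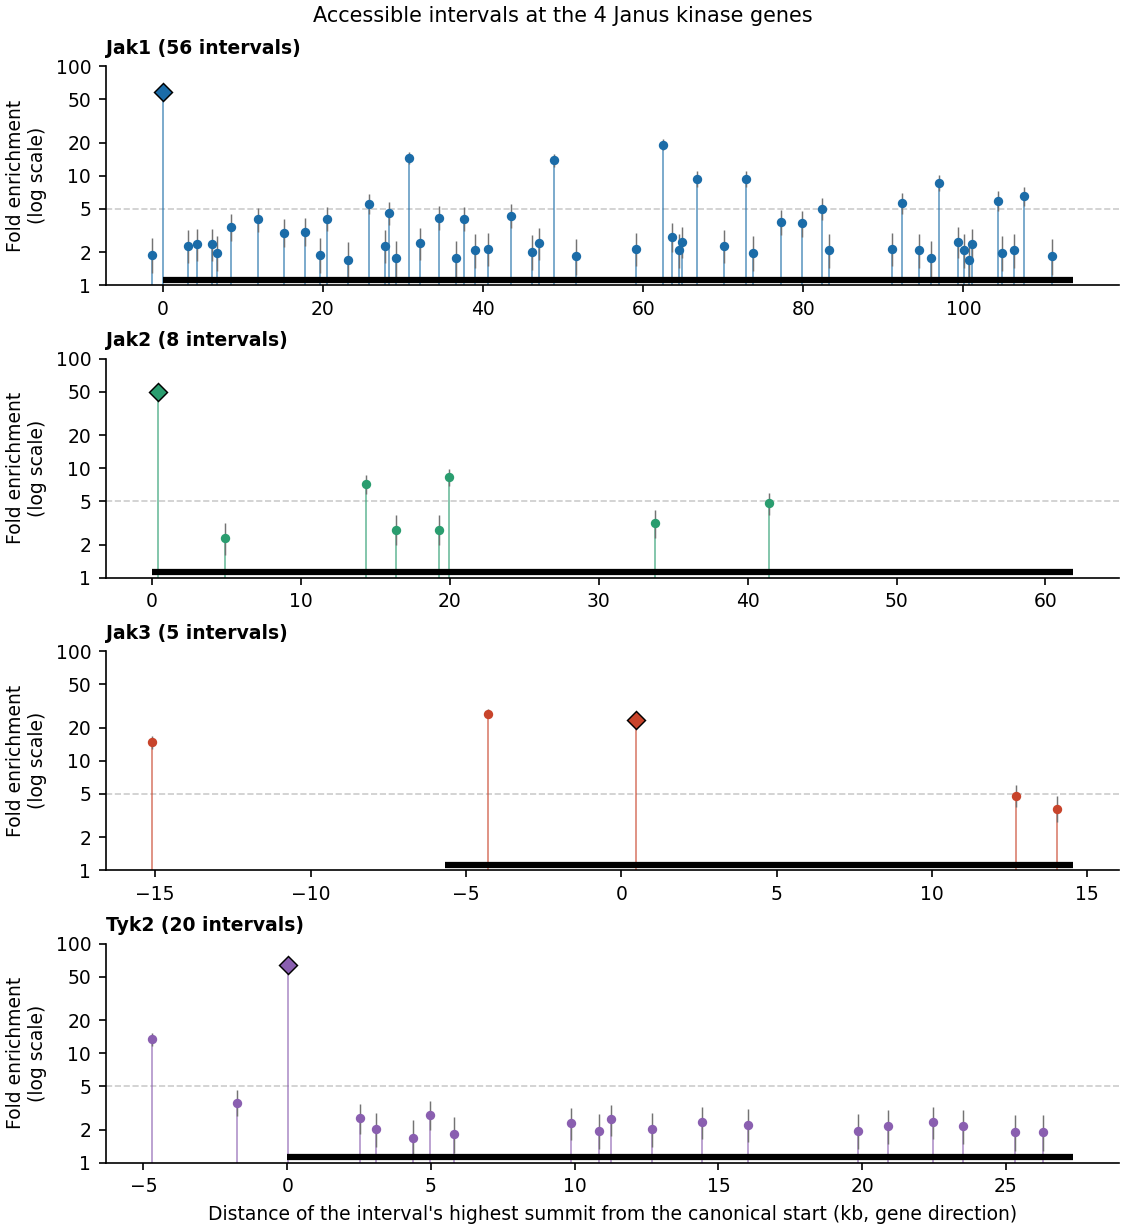
Fold enrichment (y axis, log scale) of every interval against the distance of its highest summit from the canonical start in kb (x axis, in the direction of the gene, with its own scale per gene). Diamonds mark promoter intervals, circles the others, grey whiskers the 95% Poisson intervals, black bars the annotated genes and the dashed line a fold enrichment of 5; strong intervals run along Jak1 up to 107600 bp, whereas no circle inside Tyk2 exceeds 2.75.

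Jak3 (ENSMUSG00000031805.19, chr8:72123007-72143225, plus strand, 20219 bp, 24 exons) differed from the other members in the shape of its signal. Its canonical transcript starts at position 72128692, and longer transcripts start further upstream. The promoter interval, chr8:72127690-72140149, ran on for 12460 bp through most of the gene and was wider than 99.8% of all intervals, whereas the promoter intervals of the other members were 3128 to 4702 bp wide. It held 34 summits with a median gap of 407 bp, 3 of them upstream, 10 in exons and 21 in introns. Their fold enrichments ran from 2.68 to 23.8 with a median of 4.42, and 13 reached at least 5.

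Within this stretch, 2 summits stood above 10. The highest lay 477 bp past the canonical start, in the untranslated part of exon 1, 142 bp past the RefSeq start. The other lay in intron 10 at 5659 bp and reached 17.7. The next highest reached 7.59 and 5.96 in intron 21, at 10213 and 10610 bp, 6.61 in intron 8 and 6.02 in intron 6. Apart from those 2 positions, every summit of the promoter interval was under 8.

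A further interval, chr8:72122111-72127058, lay 631 bp before the promoter interval and reached 27.0 at −4277 bp, above the 23.8 at the Jak3 start. It held the start of Unc13a, a synaptic vesicle priming gene read in the opposite direction, at −4007 bp, as well as the starts of the longer Jak3 transcripts, so that its height cannot be assigned to either gene. When starts of all transcripts were used in place of the canonical one, the promoter value of Jak3 became 27.0. The interval upstream of it, 11396 bp wide with 37 summits, lay mainly in Unc13a, with its highest summit of 14.8 at −15108 bp outside the region of Jak3. At the other end, an interval of 4.78 in the last exon held the start of Insl3, a hormone gene of the testis, at 13166 bp, and the last interval reached 3.67. All 13 annotated starts of Jak3 lay inside intervals.

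**Figure D3:**
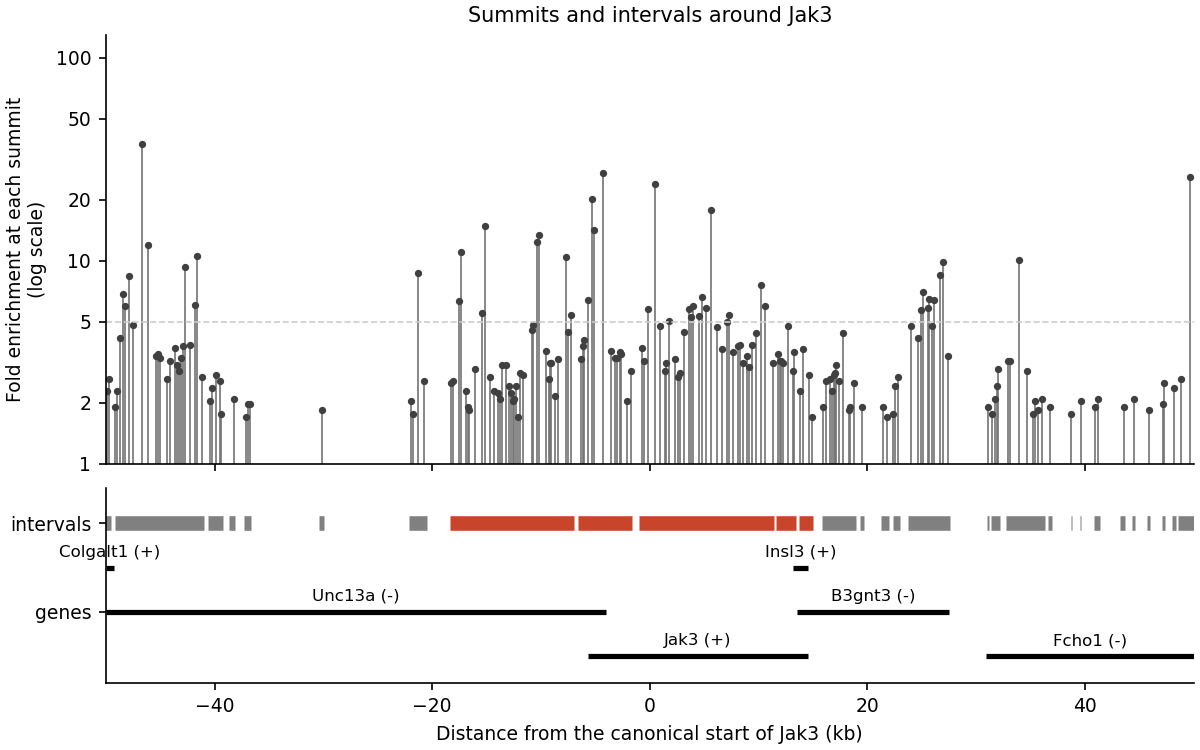
Fold enrichment at each summit (upper panel, log scale) and extent of intervals and protein-coding genes (lower panel) within 50 kb of the canonical start of Jak3, by distance in kb; red bars are the 5 intervals counted for Jak3, grey bars other intervals, and the sign after a gene its strand. The red intervals run almost without a gap from inside Unc13a through Jak3, with summits of 27.0 and 23.8 at the start regions and lower ones between them.

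The window of the summit in intron 21 of Jak3, chr8:72138855-72138955 on the plus strand (7.59), is printed as an example of the covered gene body. It holds none of the motifs searched.
Jak3 10213 bp: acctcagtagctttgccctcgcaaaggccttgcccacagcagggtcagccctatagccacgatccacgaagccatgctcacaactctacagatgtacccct

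By the share of the region inside intervals, Jak3 came first and not last. Intervals covered 93.8% of the region of Jak3, 44.4% of that of Jak1, 40.8% of that of Tyk2 and 13.9% of that of Jak2. The median over all protein-coding genes was 16.7%, and 96.8% of them were covered to a smaller share than Jak3. Only Jak3 passed 50%, 1 of 4 members, against 21.5% of all protein-coding genes. With intervals of fold enrichment at least 5 only, the shares were 82.5% at Jak3, 19.7% at Jak1, 11.6% at Tyk2 and 9.80% at Jak2. This limit looks at the highest summit and then counts the interval at its full width. In the 12460 bp interval of Jak3, 13 of 34 summits reached 5, and in the 4948 bp interval before it 4 of 14. The 82.5% is thus not a share of bases at a fold enrichment of at least 5. Jak3 remained the most covered, although its density of 2.15 intervals per 10 kb was below the 4.80 of Jak1, since its intervals were few and long.

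**Figure D4:**
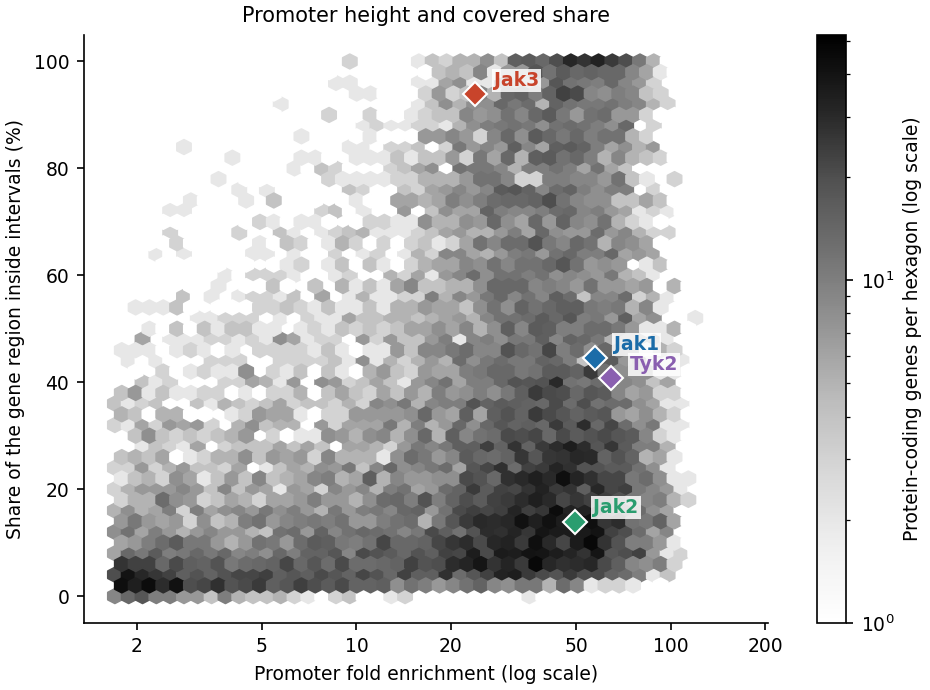
Share of the gene region inside intervals in percent (y axis) against promoter fold enrichment (x axis, log scale) for protein-coding genes with a promoter interval; grey shading counts genes per hexagon on a log scale and diamonds mark the members. Jak3 lies at 93.8% and 23.8, and Jak1, Jak2 and Tyk2 at 13.9% to 44.4% with promoters of 49.5 to 64.6.

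Base composition differed between the members as well. The sequence within 500 bp of the start held 65.4% G and C in Jak1 and 64.8% in Jak2, against 55.8% in Jak3 and 55.0% in Tyk2. The ratio of observed to expected CpG was 0.784 in Jak1, 0.890 in Jak2, 0.530 in Tyk2 and 0.372 in Jak3. Jak1 and Jak2 thus fell among the 10022 promoters with a CpG ratio of at least 0.6 and at least 50% G and C, of which 99.0% had an interval, with a median fold enrichment of 38.7. Jak3 and Tyk2 fell among the other 11735, of which 56.1% had one, with a median of 2.49 when absent ones count as 0. Tyk2 had the highest promoter of the family without belonging to the CpG-rich group.

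The whole region of Jak3 held 55.2% G and C, more than 97.7% of protein-coding genes, against 50.3% for Tyk2, 43.9% for Jak1 and 39.9% for Jak2. Among the 602 genes whose region lay within 1 percentage point of Jak3, the median covered share was 82.7%, and 73.8% of them were covered to a smaller share than Jak3. The covered share of Jak3 was therefore high among all genes and less so among genes of like G and C content. Of these 602 genes, 97.7% had a promoter interval. Their median promoter fold enrichment was 26.3 when absent ones count as 0, beside 23.8 at Jak3. The part of base composition in the signal was not tested.

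Among all 89 intervals of the family, 19 had a fold enrichment of at least 5, or 21.3%, beside 24.5% of all intervals, so that the family as a whole lay near the background. Outside the promoter, each of the 4 members had at least 1 such interval, as did 50.7% of all protein-coding genes, with 10 at Jak1, 2 at Jak2, 2 at Jak3 and 1 at Tyk2. The highest summit of the 1 at Tyk2 (13.4, in Cdc37) and of 1 of the 2 at Jak3 (14.8, in Unc13a) lay outside the region of the member, so that by summit position Tyk2 had 0 and Jak3 1. Intervals at least 10 kb wide numbered 2, both counted for Jak3, beside 0.336% of all intervals. In all, 70 intervals had their highest summit in introns, 13 in exons and 6 upstream.

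A set of 8 short motifs were searched on both strands in the 250 bases before each start and in 101 bases around the highest summit of each interval. They were the STAT motif TTCNNNGAA (GAS), the interferon response core GAAANNGAA, the ETS motif CCGGAA, the Sp/KLF motif GGGCGG, the NFY motif CCAAT, the NRF1 motif GCATGCGC, the RUNX motif TGTGGT and the E-box CACGTG. The promoter of Jak1 held CCAAT at 54 bases before the start, which 36.5% of all promoters hold in these windows. That of Jak2 held the STAT motif as TTCGCAGAA at 138 bases before the start, which 7.70% of promoters hold. That of Tyk2 held the Sp/KLF motif at 96 and 65 bases before the start, as do 36.3% of promoters, and CCAAT at 46. That of Jak3 held none of the 8. The RefSeq start lies 526 bp past the canonical start in Jak2 and 335 bp past it in Jak3. Their highest summits lie 402 and 477 bp past the canonical start. For Jak2 and Jak3, the 250 bases searched therefore lie before the RefSeq promoter and away from the highest summit.

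In the 89 summit windows of the family, the interferon response core was found in 4, all of them at Jak1, or 4.49%, beside 2.11% of all windows. CCAAT was found in 11, or 12.4%, beside 12.3% of all windows, the RUNX motif in 6, or 6.74%, beside 8.76%, and the STAT motif in 2, 1 at Jak1 and 1 at Jak2, beside 2.79%. The Sp/KLF motif was found in 4 windows, beside 5.41%, the ETS motif in 2, beside 2.26%, the E-box in 1, beside 2.26%, and the NRF1 motif in 0, beside 0.329%. Promoters hold the ETS motif in 12.4%, the RUNX motif in 13.0%, the interferon response core in 7.56%, the E-box in 6.26% and the NRF1 motif in 2.68% of cases. A match describes letters and not a bound site.

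The receptors, STAT factors and inhibitors that work with these kinases were described by 7 lists of 49 genes in all. Of these, 44 had a promoter interval, beside 75.8% of all protein-coding genes, and 35 a promoter fold enrichment of at least 5, beside 66.2%. The median was 25.5 with absent ones at 0. Of the 8 gamma chain cytokine receptor genes, 5 had a promoter interval and 2 reached at least 5, namely Il4ra, the IL-4 receptor, at 40.4, and Il15ra, which presents IL-15, at 40.2. Il2rg, the common gamma chain itself, Il2ra and Il7r had none within 1 kb of the start, and Il21r was the lowest of the rest at 1.96. Jak3 thus had a promoter interval, at 23.8, where Il2rg, the receptor chain that JAK3 binds, had 2 intervals but none at its promoter.

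All 6 IL-6 family receptor genes reached at least 5, with a median of 32.3, from 9.69 at Cntfr, the receptor of ciliary neurotrophic factor, to 63.1 at Il6st, the shared signalling chain gp130. All 5 interferon receptor genes did so too, with a median of 36.6, from 10.5 at Ifnlr1 for type III interferons to 84.9 at Ifnar1 for type I interferons, the receptor chain to which TYK2 binds. Of the 5 genes for IL-10, IL-12 and IL-23 receptors, 4 had a promoter interval and 2 reached at least 5, with a median of 4.12 when the absent one counts as 0. Il10rb, a chain shared by IL-10 and type III interferons, was the highest at 29.0, Il12rb2 the lowest with an interval at 3.80, and Il23r had none at its promoter.

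Receptors of hormones and blood growth factors, which work mainly through JAK2, were divided. Of 7 genes, 6 had a promoter interval and 3 reached at least 5, with a median of 3.80 when the absent one counts as 0. Ghr, the growth hormone receptor, was the highest at 42.2, and Csf3r, the receptor of granulocyte colony-stimulating factor, was the lowest of those with an interval at 2.10. Of the 7 STAT genes, all had a promoter interval and 6 reached at least 5, with a median of 33.2, from 68.6 at Stat3 down to 4.12 at Stat4, which acts mainly in lymphocytes. All 11 inhibitor genes reached at least 5, with a median of 35.4, from 63.9 at Ptpn2, a phosphatase of JAK1 and JAK3, to 5.11 at Ptpn6, a phosphatase of blood cells. Of the 49 genes, 14 were covered over at least 50% of their region, beside 21.5% of all protein-coding genes, and 7 of the 14 were inhibitors.

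Kidney tissue holds leukocytes beside tubule cells, and in a pool of whole tissue fewer cells of a type and less open chromatin per cell cannot be told apart. Of 19 leukocyte marker genes, 11 had a promoter interval and 3 reached at least 5, with a median of 1.96 when absent ones count as 0 and values up to 27.6, at the macrophage gene Csf1r. Ptprc, which encodes CD45 and marks leukocytes at large, stood at 1.90, Cd3d, Cd3e, Cd2, Cd4, Cd8a and Itgam had no promoter interval, and Ms4a1, a B cell gene, had no interval at all. Jak3 was thus above all but Csf1r of these markers. Of 12 tubule marker genes, all had a promoter interval and 11 reached at least 5, with a median of 15.7, up to 162 at Cdh16, the gene whose promoter drives the Cre transgene. The Acly cKO mice carry that promoter in the transgene as well, and its part in the value of Cdh16 was not tested. Medians were 3.01 over 5 endothelial and 7.14 over 4 podocyte markers. Jak3 was above all of these as well, and above all tubule markers but Lrp2 at 33.1, Pax8 at 43.9 and Cdh16. The part of each cell type in the signal at Jak3 was not tested.

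**Figure D5:**
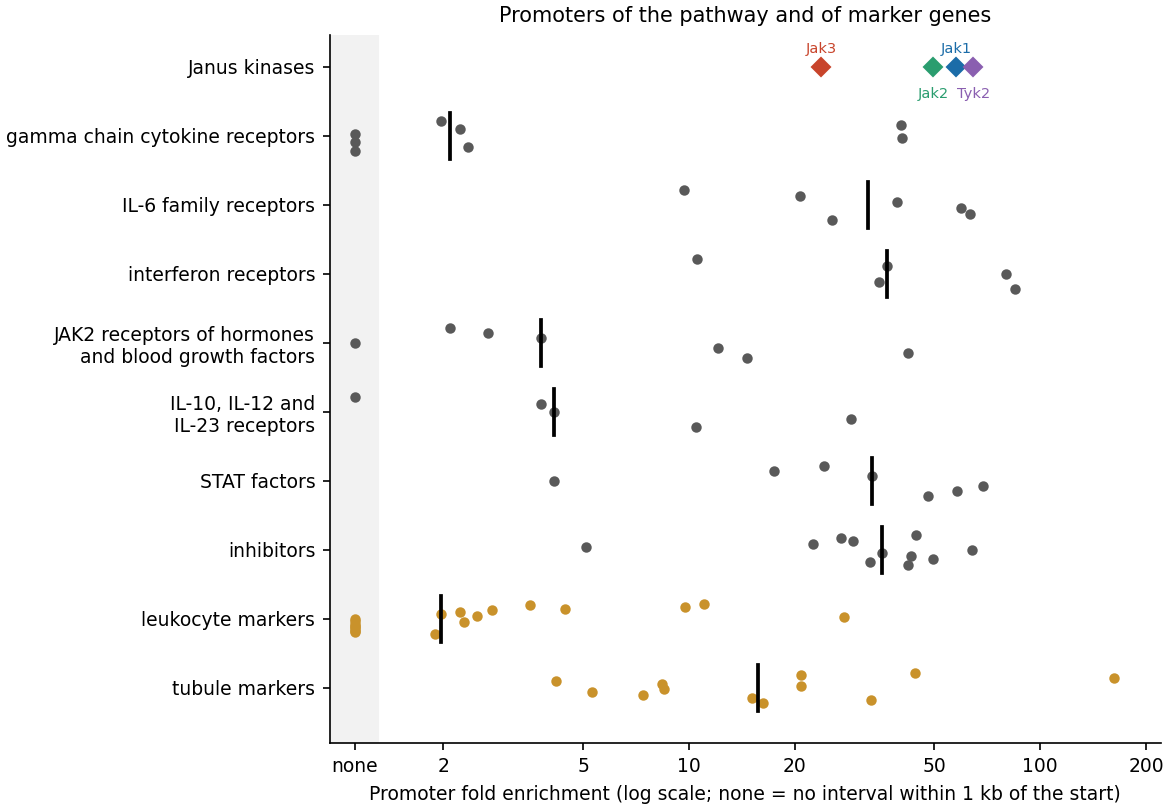
Promoter fold enrichment (x axis, log scale) of the Janus kinases, 7 lists of genes of their pathway and 2 of the marker lists; each point is a gene, points in the shaded column have no interval within 1 kb of the start, and black lines are medians with absent ones at 0. The gamma chain receptors and the leukocyte markers have medians of 2.10 and 1.96, far left of Jak3 at 23.8 and of the interferon receptors at 36.6.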

How the data were processed

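Chromatin accessibility was measured by ATAC-seq in kidney cortex of 3 WT and 3 Acly cKO mice, grouped by their genotype labels; the methods of the study count 2 further WT libraries deposited earlier, and the libraries in the pooled call are not named in the sources used here. By its methods, the study mapped fastp-trimmed reads to mm39 by Bowtie2 2.3.4.3, kept unique reads without duplicates and called peaks and their summits with MACS3 3.0.0, after which blacklisted regions were removed with BEDTools 2.29.1. For every summit, the deposited peaks carry a fold enrichment over background (a linear ratio), a −log10 q written by the authors' caller, and a score derived from it that was not used. The deposited list of summits before filtering was used to check that no summit in the regions of the members had been removed. Columns with values of single libraries numbered 0.

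Rows with the same chromosome, start and end were joined to 1 interval, and coordinates are written from 1. A region runs from 3 kb upstream of the gene to its end, a promoter is the strongest interval overlapping 1 kb either side of the canonical start of GENCODE M39, and covered means inside an interval. Fold enrichments of all 749750 summits were whole multiples of a step of 0.0655 (tolerance 0.05 steps), and each of the 1549 distinct pileups had a single −log10 q (tolerance 0.01), so that the background was the same everywhere. The exact intervals were taken from these pileups, given that the caller adds 1 to pileup and background. The −log10 p column was not used. The depth of single libraries is unknown, and the ends of 1 fragment may not be independent. No statistical test was run, since 1 pooled call has no replicates. Percentiles are over 21757 protein-coding genes. RefSeq promoter sequences of GRCm38.p6 matched all 4 members and were located in GRCm39 by their letters alone. Windows overlapping annotated untranslated regions are not printed.

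The genes named are the 4 members with all their intervals, the highest, the lowest and the absent promoters of each pathway list, neighbours whose start lies in an interval of a member, and marker genes. Of the listed genes, 2 are not reported by name here. The gene above a summit outside the region (Cdc37), the second highest promoter of the gamma chain receptors and the tubule markers above Jak3 were named after their values were seen. The members and lists were chosen with earlier results of these data known. Alternatives were tried for the limits on q and fold enrichment, the region, the overlap and the promoter window. Scripts were tested on simulated data. Tools were Python 3.11.15 with pandas 2.3.3, numpy 2.4.6, pysam 0.24.0, matplotlib 3.10.9 and scipy 1.17.1.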

Additional observations from a re-analysis of the deposited data

How the results depend on the processing

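The numbers of intervals depended on the limits set. With a −log10 q of at least 5, Jak1 kept 28 intervals and Tyk2 6. With a fold enrichment of at least 5, Jak1 had 11, Jak2 3, Jak3 3 and Tyk2 2. With 10 kb on either side of the gene, Jak3 had 10. Under the other 17 settings, the counts stayed within 1.5 times the value reported. With the starts of all transcripts, the promoter fold enrichment of Jak3 became 27.0, the interval that holds the start of Unc13a, and the other 11 settings left the 4 promoter values where they were. The covered share with intervals of fold enrichment at least 5 only, each counted at its full width, was 19.7% at Jak1, 9.80% at Jak2, 82.5% at Jak3 and 11.6% at Tyk2. This setting was added after seeing the data. A region from the canonical start, also added then, moved none of the 4 shares by more than 0.1 percentage points. No paired analysis was possible because the peak call is pooled and has no column for a library, and for the same reason no library could be left out. The precision given is that of counts of read ends in the pool, and intervals near the lowest pileup of 25 read ends are the least certain.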
